A study of Homo sapiens with 12 samples.

Results

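The INK4 and CIP/KIP genes encode the proteins that hold cyclin-dependent kinases (CDKs) in check. They were selected by gene symbol, as the 4 INK4 genes *CDKN2A*, *CDKN2B*, *CDKN2C* and *CDKN2D* and the 3 CIP/KIP genes *CDKN1A*, *CDKN1B* and *CDKN1C*, which are 7 of the 60612 gene rows used from the count table. All 7 genes were tested in every comparison. RNA was sequenced from ZR-75-1, an oestrogen receptor-positive human breast cancer cell line, in 4 groups of 3 replicates. These were sgControl cells (edited with a non-targeting guide RNA) in DMSO, sgControl cells in abemaciclib, *RB1*-knockout cells in DMSO and *RB1*-knockout cells in abemaciclib. Treatment was for 5 days, with abemaciclib at 500 nM, a CDK4 and CDK6 inhibitor, or an equal volume of DMSO. All groups shared the parental line, the culture medium and CRISPR–Cas9 editing. The series calls the edited lines of both genotypes clones, and the study describes single-cell sorting of edited cells for its knockout lines. How many clones stand behind each genotype was not given in the sources used here, so a difference between genotypes and a difference between clones cannot be told apart.

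INK4 proteins bind CDK4 and CDK6 and keep them from pairing with D-type cyclins. CIP/KIP proteins bind assembled cyclin–CDK complexes, block those that contain CDK2 and also take part in the assembly of cyclin D complexes. Active CDK4 and CDK6 phosphorylate Rb, the product of *RB1*, which in its unphosphorylated form holds back E2F transcription factors and with them the genes for DNA replication. Abemaciclib thus acts on the same kinases as the INK4 proteins, and the groups ask how the cell's own inhibitors were expressed when these kinases were inhibited by the drug, with and without Rb.

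The libraries held 39907318 to 81636393 counts. Pairs of replicates differed by a chi-square of 3.49 to 105 per gene, so none was a repeat of another, and sgControl DMSO replicate 1 lay furthest from its group. The knockout was checked first. *RB1* had normalized counts (counts divided by a library size factor) of 4154 to 4825 in sgControl libraries in DMSO and 2252 to 2489 in abemaciclib, but 39.6 to 63.5 in the 6 knockout libraries. All 7 luminal breast markers examined, *ESR1*, *GATA3*, *FOXA1*, *KRT8*, *KRT18*, *KRT19* and *EPCAM*, were expressed. *VIM*, *PTPRC* and *PECAM1*, which mark mesenchymal, blood and endothelial cells, had 0 to 4 counts per library, whereas the collagen gene *COL1A1*, listed as a fibroblast marker, had group means of 1940.1 to 2903 normalized counts.

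On GRCh38 (GENCODE 44), *CDKN1A*, the gene for p21, lies at chr6:36676460-36687337 on the forward strand, and *CDKN1B*, the gene for p27, at chr12:12685498-12722369 on the forward strand. *CDKN1C*, which encodes p57 and is imprinted, lies at chr11:2883213-2885775 on the reverse strand. *CDKN2A* (chr9:21967752-21995301) and *CDKN2B* (chr9:22002903-22009305) are neighbours on the reverse strand of 9p21. They encode p16INK4A and p15INK4B, and *CDKN2A* also encodes the unrelated protein p14ARF from another first exon. The count of *CDKN2A* does not separate the p16INK4A and p14ARF transcripts. *CDKN2C*, the gene for p18INK4C, lies at chr1:50960745-50974634 on the forward strand, and *CDKN2D*, the gene for p19INK4D, at chr19:10566460-10569059 on the reverse strand.

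RefSeq promoter windows of 300 bases (250 before and 50 after a transcription start, GRCh38.p14) matched 6 of the 7 genes in 9 windows, with *CDKN1C* named only. They are shown for the most abundant member (*CDKN1A*, chr6:36678464-36678763, forward strand), for the 9p21 neighbours, of which 1 fell in abemaciclib and the other did not pass the test (*CDKN2A* at the p16INK4A start, chr9:21974808-21975107, and *CDKN2B*, chr9:22009256-22009555, both reverse strand) and for the INK4 gene whose responses differed most between the genotypes (*CDKN2C*, chr1:50969995-50970294, forward strand). Each printed window runs 5′ to 3′ along the gene, and capitals mark matches to the GC box GGGCGG on either strand. For *CDKN2C* the window at start 3 is printed, with 49.3% G and C. Its windows at start 1 (chr1:50960495-50960794, 46.3%) and start 2 (chr1:50968456-50968755, 71.3%, also with GC boxes) are not printed.
CDKN1A: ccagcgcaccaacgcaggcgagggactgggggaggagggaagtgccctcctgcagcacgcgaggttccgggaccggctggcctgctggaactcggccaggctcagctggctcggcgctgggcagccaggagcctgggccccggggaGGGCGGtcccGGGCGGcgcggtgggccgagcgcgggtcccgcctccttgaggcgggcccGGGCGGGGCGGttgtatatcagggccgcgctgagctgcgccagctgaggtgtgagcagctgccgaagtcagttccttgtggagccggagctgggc
CDKN2A: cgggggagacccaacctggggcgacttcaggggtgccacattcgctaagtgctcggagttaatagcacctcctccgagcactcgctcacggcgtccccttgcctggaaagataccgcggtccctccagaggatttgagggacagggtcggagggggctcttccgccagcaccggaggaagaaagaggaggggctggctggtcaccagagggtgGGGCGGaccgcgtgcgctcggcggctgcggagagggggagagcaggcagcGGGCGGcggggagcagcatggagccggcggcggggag
CDKN2B: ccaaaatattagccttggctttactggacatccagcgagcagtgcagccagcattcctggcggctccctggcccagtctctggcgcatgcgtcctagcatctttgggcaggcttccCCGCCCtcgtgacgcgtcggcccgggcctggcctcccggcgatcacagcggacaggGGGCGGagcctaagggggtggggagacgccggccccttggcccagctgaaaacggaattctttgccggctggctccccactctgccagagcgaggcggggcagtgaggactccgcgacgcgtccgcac
CDKN2C: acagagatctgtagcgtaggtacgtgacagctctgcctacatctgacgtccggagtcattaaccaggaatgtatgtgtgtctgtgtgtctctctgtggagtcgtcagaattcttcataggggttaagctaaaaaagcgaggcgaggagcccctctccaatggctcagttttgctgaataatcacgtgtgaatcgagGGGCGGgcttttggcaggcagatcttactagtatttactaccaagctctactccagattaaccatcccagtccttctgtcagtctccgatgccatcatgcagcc
Each of the 6 genes had a GC box in at least 1 window, 7 of the 9 windows in all. Of all 34796 distinct RefSeq promoter windows of this length, 44.9% had a GC box. In *CDKN1A* the last 2 of 4 matches, starting 45 and 40 bases before the transcription start, share a base. None of the 9 windows held the E2F words TTTCCCGC, TTTGGCGC, TTTCGCGC or TTTGCCGC (3.3% of all windows, both strands) or the CHR words TTTGAA or TTTCGAA (15.7%). The NF-Y word CCAAT was in 3 of the 9 windows (34.6% of all windows) and the E-box word CACGTG in 2, both of *CDKN2C* (7.2%). These matches describe the letters of the windows and are no evidence of binding, and no match says only that the word is not in that window.

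In sgControl cells, 6 of the 7 inhibitor genes fell after 5 days of abemaciclib, and the 7th, *CDKN2B*, did not pass the test. Against this, 23.9% of the 23512 genes tested fell. *CDKN1C*, *CDKN2A* and *CDKN2C* had log2 fold changes of -4.19, -3.13 and -3.01, *CDKN2D* and *CDKN1A* of -2.26 and -2.12, and *CDKN1B* of -0.58. A fall of at least 2-fold was seen in 5 of the 7, against 9.22% of all genes tested. The median log2 fold change was -2.26 over the 7 genes and 0.01 over all genes tested. In these bulk samples, fewer cells that express a gene and less RNA of it per cell cannot be told apart.

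**Figure D1:**
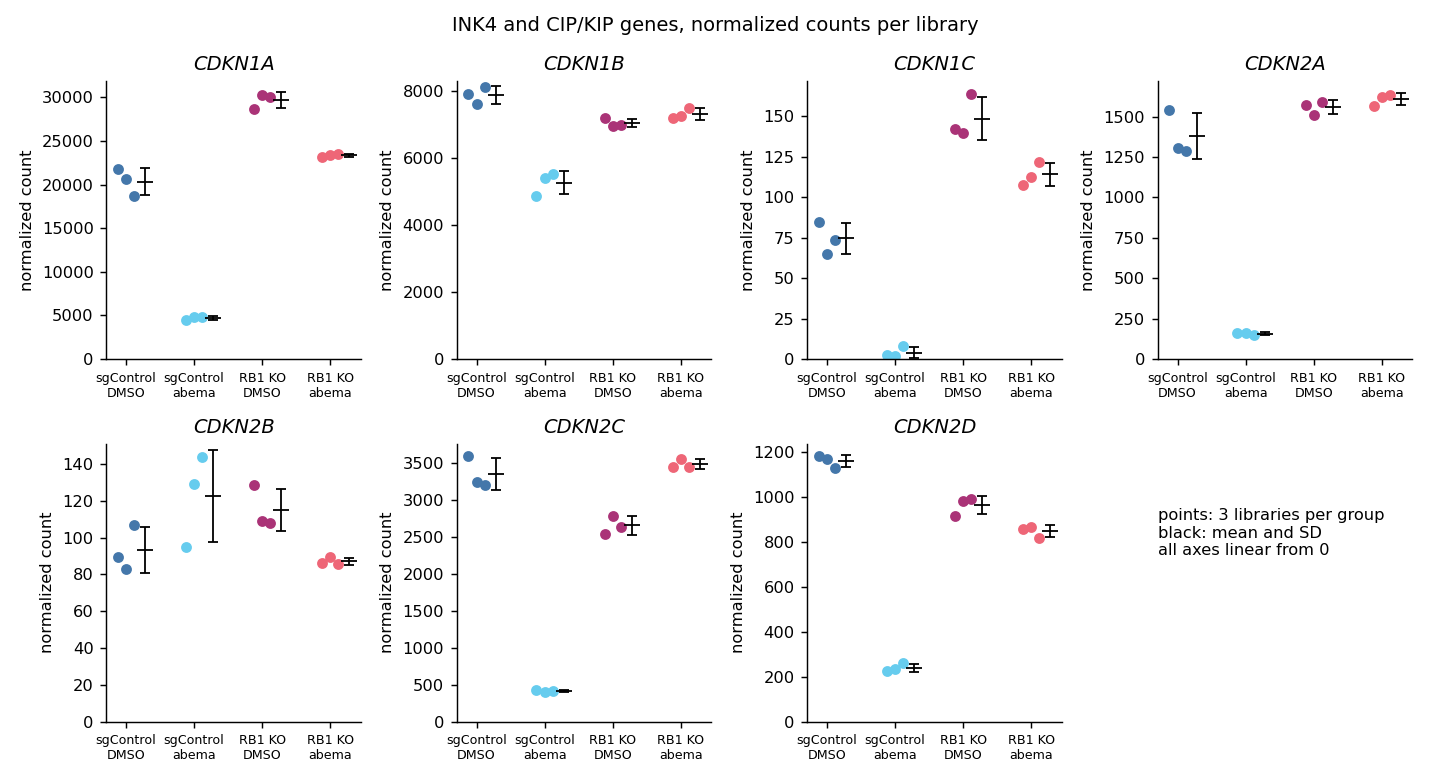
Normalized counts of the 7 genes (linear axes from 0, 1 panel per gene) in the 4 groups, with a point for each of 3 libraries and the mean and SD in black. For every gene but CDKN2B, the 3 sgControl libraries in abemaciclib lie below the other 9 libraries, as they do for 18.1% of the 23512 genes tested.

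*CDKN1A* encodes p21, an inhibitor of CDK2 complexes that can arrest cells before S phase. Its normalized counts were 21753, 20601 and 18643 in the 3 sgControl libraries in DMSO and 4428, 4788 and 4855 in abemaciclib. In *RB1*-knockout cells they were 28706, 30306 and 30082 in DMSO and 23147, 23384 and 23539 in abemaciclib. The 4 groups did not overlap, and the order from high to low was knockout in DMSO, knockout in abemaciclib, sgControl in DMSO and sgControl in abemaciclib. The fall in sgControl cells was 4.33-fold (log2 fold change -2.12 ± 0.06 SE, adjusted p = 1.19e-248). The fall in knockout cells was 1.27-fold (log2 fold change -0.35 ± 0.06, adjusted p = 2.95e-07).

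*CDKN1B* moved least among the 6 genes that fell. Its normalized counts were 7898, 7595 and 8108 in sgControl libraries in DMSO and 4872, 5387 and 5526 in abemaciclib, a fall of 1.49-fold (log2 fold change -0.58 ± 0.06, adjusted p = 1.41e-24). In knockout cells they were 7178, 6961 and 6985 in DMSO and 7182, 7240 and 7496 in abemaciclib. The sgControl libraries in abemaciclib lay below the other 9, and the highest knockout library in DMSO (7178.1) lay just under the lowest knockout library in abemaciclib (7182.1). The response in knockout cells did not pass the test (log2 fold change 0.05 ± 0.06, 95% interval -0.06 to 0.16, adjusted p = 0.527).

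*CDKN1C* was expressed at a low level and at 2 to 9 counts in the sgControl libraries in abemaciclib. Its raw counts were 91, 74 and 117 in sgControl libraries in DMSO and 2, 2 and 9 in abemaciclib, where the normalized counts were 2.2, 1.8 and 7.9. Knockout libraries had normalized counts of 142.1, 139.9 and 163.7 in DMSO and 107.6, 112.7 and 122 in abemaciclib. The 4 groups did not overlap. The summed raw counts of the sgControl groups were 282 and 13, which gives a fall of 18.2-fold once scaled by library size, with a 95% interval of 10.5 to 34.7 that covers counting error only. The fitted log2 fold change was -4.19 ± 0.44 (adjusted p = 8.22e-21), and -5.25 without sgControl abemaciclib replicate 3, the library with 9 counts. It was -3.93 without sgControl abemaciclib replicate 1 and -3.81 without replicate 2, so leaving out 1 treated library moved it both ways. In knockout cells the log2 fold change of -0.38 ± 0.19 did not pass the test (95% interval -0.75 to -0.01, adjusted p = 0.118).

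*CDKN2A* had normalized counts of 1543, 1304 and 1287 in sgControl libraries in DMSO and 163.8, 158.5 and 149.8 in abemaciclib, an 8.76-fold fall (log2 fold change -3.13 ± 0.10, adjusted p = 7.36e-212). In knockout cells it had 1571, 1509 and 1593 in DMSO and 1564, 1624 and 1634 in abemaciclib. The sgControl libraries in abemaciclib stood alone at the bottom, while the 2 knockout groups overlapped each other and the knockout libraries in DMSO overlapped the sgControl libraries in DMSO. The response in knockout cells was a log2 fold change of 0.05 ± 0.08 (95% interval -0.11 to 0.20, adjusted p = 0.736).

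*CDKN2B*, the gene that TGF-β signalling is known to induce, was the member that did not pass the test in sgControl cells. Its normalized counts were 89.4, 82.8 and 107.1 in sgControl libraries in DMSO and 94.8, 129.3 and 143.6 in abemaciclib, so the groups overlapped. In knockout cells they were 128.4, 109.1 and 108 in DMSO and 86.1, 89.5 and 85.7 in abemaciclib, and there the groups did not overlap. The log2 fold change in sgControl cells was 0.40 ± 0.19 (95% interval 0.02 to 0.77, adjusted p = 0.0742), and that in knockout cells was -0.40 ± 0.20 (95% interval -0.79 to -0.01, adjusted p = 0.125). The response in sgControl cells passed the test under 4 of the 19 alternatives, including edgeR (adjusted p = 0.0429). Without sgControl abemaciclib replicate 1 the adjusted p was 0.0118, and without sgControl DMSO replicate 3 it was 0.0404.

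*CDKN2C* had normalized counts of 3605, 3243 and 3209.6 in sgControl libraries in DMSO and 433.2, 396.7 and 422.8 in abemaciclib. That is an 8.03-fold fall (log2 fold change -3.01 ± 0.07), with an adjusted p below the smallest number the software can hold. In knockout cells the counts were 2544, 2789.7 and 2643 in DMSO and 3446, 3564 and 3447 in abemaciclib, so the gene rose 1.31-fold there (log2 fold change 0.39 ± 0.06, adjusted p = 3.68e-08). The knockout libraries in abemaciclib overlapped the sgControl libraries in DMSO at the top of the order.

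*CDKN2D* had normalized counts of 1186, 1171 and 1132 in sgControl libraries in DMSO and 227.4, 235.6 and 261.6 in abemaciclib, a 4.8-fold fall (log2 fold change -2.26 ± 0.08, adjusted p = 5.30e-161). In knockout cells it had 918.1, 981.7 and 994.7 in DMSO and 859.5, 867.6 and 818 in abemaciclib. The 4 groups did not overlap. The fall of 1.14-fold in knockout cells passed narrowly (log2 fold change -0.19 ± 0.07, adjusted p = 0.0394). It was lost in 11 of 19 alternatives (adjusted p from 0.0229 to 0.164), 8 of which left out 1 library: sgControl DMSO replicates 2 and 3, sgControl abemaciclib replicate 2, knockout DMSO replicates 2 and 3, and each of the 3 knockout libraries in abemaciclib.

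In knockout cells as a whole, 3 of the 7 genes passed the test, *CDKN2C* upwards and *CDKN1A* and *CDKN2D* downwards, against 30.1% of 18506 genes tested that changed in either direction. The count of members is thus near that background. Their log2 fold changes ran from -0.40 to 0.39, and the median log2 fold change was -0.19 over the 7 genes and 0.02 over all genes tested.

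**Figure D2:**
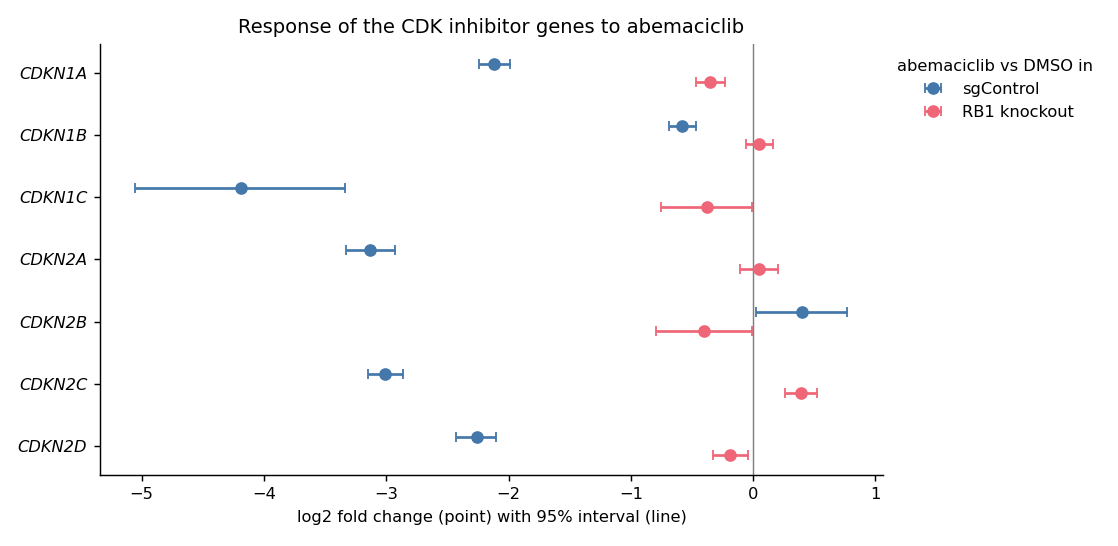
Log2 fold change of each gene in abemaciclib against DMSO in sgControl cells (blue) and in RB1-knockout cells (red), with lines for the 95% interval. The sgControl values run from -4.19 to 0.40 and the knockout values from -0.40 to 0.39.

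The difference between the 2 responses was then tested as an interaction, the log2 fold change in knockout cells minus that in sgControl cells. All 7 genes passed, where 41.2% of 21008 genes tested did. Of the 7, 6 passed upwards, against 21% of genes tested that passed upwards. For *CDKN2C* the interaction was 3.40 ± 0.10 (adjusted p = 8.86e-259), for *CDKN2A* 3.18 ± 0.13 (adjusted p = 1.71e-132) and for *CDKN2D* 2.08 ± 0.11 (adjusted p = 1.04e-75). Among the CIP/KIP genes it was 3.81 ± 0.48 for *CDKN1C* (adjusted p = 1.34e-14, and 4.88 without sgControl abemaciclib replicate 3), 1.77 ± 0.09 for *CDKN1A* (adjusted p = 3.09e-88) and 0.63 ± 0.08 for *CDKN1B* (adjusted p = 8.54e-15). For these 6 genes the response in sgControl cells was the more negative one, and for 5 of them the difference was at least 2-fold, against 9.76% of genes tested.

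*CDKN2B* had an interaction of the opposite sign, -0.79 ± 0.28 (adjusted p = 0.0117), although neither response passed alone. This call was lost without sgControl abemaciclib replicate 3 (adjusted p = 0.0542) and with library factors from total counts (adjusted p = 0.0627), within a range of 0.00184 to 0.0627 over 18 alternatives.

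**Figure D3:**
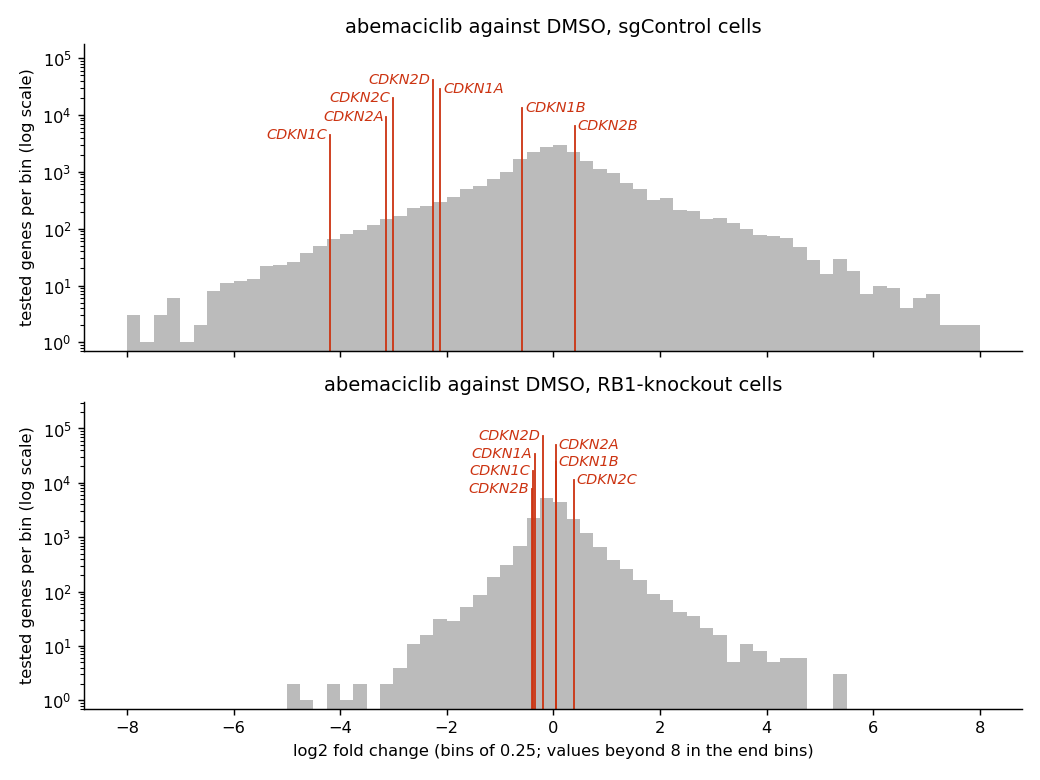
Number of tested genes (log axis) by log2 fold change in abemaciclib against DMSO, in bins of 0.25, for sgControl cells (top) and RB1-knockout cells (bottom), with red lines at the 7 genes. In sgControl cells 5 of the 7 lie at or below -2.12, and in knockout cells all 7 lie between -0.40 and 0.39.

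Within the distribution of responses in sgControl cells, *CDKN1C* stood at the lowest 0.965% of tested genes, *CDKN2A* at 2.74%, *CDKN2C* at 3.05%, *CDKN2D* at 5.79% and *CDKN1A* at 6.47%. *CDKN1B* stood at 25.2% and *CDKN2B* at 67.7%.

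Without drug, knockout and sgControl cells differed less. In DMSO, 5 of the 7 genes passed the test between genotypes, against 31.4% of 19757 genes tested in either direction, and none did so by more than 2-fold. *CDKN1A* was 1.46-fold higher in knockout cells (log2 fold change 0.55 ± 0.06, adjusted p = 2.88e-17) and *CDKN1C* 2-fold higher (1.00 ± 0.19, adjusted p = 2.09e-06). *CDKN2C* was 1.26-fold lower (-0.33 ± 0.06, adjusted p = 2.82e-06) and *CDKN2D* 1.2-fold lower (-0.27 ± 0.07, adjusted p = 0.00106).

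*CDKN1B* was 1.12-fold lower in knockout cells in DMSO (log2 fold change -0.16 ± 0.06, adjusted p = 0.0151), a call lost with total-count factors and without sgControl DMSO replicate 3 or knockout DMSO replicate 2 or 3 (adjusted p up to 0.0771). *CDKN2A* did not pass (0.18 ± 0.08, adjusted p = 0.0758). It did so without sgControl DMSO replicate 1, whose 1543 counts were the highest of its group (0.26, adjusted p = 5.01e-04). *CDKN2B* did not pass either (0.29 ± 0.19, 95% interval -0.09 to 0.68, adjusted p = 0.266). The median log2 fold change was 0.18 over the 7 genes, against -0.00 over all genes tested.

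In abemaciclib, all 7 genes differed between the genotypes, where 12002 of 22260 genes tested did. Of the 7, 6 were higher in knockout cells, against 27.5% of genes tested that were higher. *CDKN1C* was higher by a log2 fold change of 4.81 ± 0.44 (adjusted p = 2.61e-27, and 5.87 without sgControl abemaciclib replicate 3), *CDKN2A* by 3.35 ± 0.10 (adjusted p = 4.71e-242) and *CDKN2C* by 3.06 ± 0.07, with an adjusted p too small to be represented. *CDKN1A* was higher by 2.32 ± 0.06 (adjusted p = 1.14e-297), *CDKN2D* by 1.81 ± 0.09 (adjusted p = 8.25e-98) and *CDKN1B* by 0.47 ± 0.06 (adjusted p = 1.28e-16). This comparison and the response in sgControl cells share the same 3 sgControl libraries in abemaciclib, so they are not separate evidence.

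*CDKN2B* was 1.41-fold lower in knockout cells in abemaciclib (log2 fold change -0.50 ± 0.20, adjusted p = 0.0219). The groups did not overlap, but the call was lost in 7 of 19 alternatives (adjusted p from 0.00287 to 0.152). These included leaving out sgControl abemaciclib replicate 2 or 3 and any 1 of the 3 knockout libraries in abemaciclib. Leaving out sgControl DMSO replicate 1, the library furthest from its group, changed only the call of *CDKN2A* in DMSO among all 35 results for the 7 genes.

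Levels were compared between genes per kilobase of the MANE Select transcript (a single representative transcript per gene), in normalized counts per kb. *CDKN1A* led in every group, with 9604 ± 743 (SD, n = 3) in sgControl cells in DMSO, 2216 ± 108 in sgControl cells in abemaciclib, 14028 ± 409 in knockout cells in DMSO and 11033 ± 94 in knockout cells in abemaciclib. In sgControl cells in DMSO it was followed by *CDKN2C* (3369 ± 221) and *CDKN1B* (3263 ± 107), whose libraries overlapped, then by *CDKN2A* (1409 ± 147) and *CDKN2D* (816 ± 20). *CDKN1C* (42 ± 5.5) and *CDKN2B* (24.2 ± 3.3) came last.

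Abemaciclib changed this order in sgControl cells. *CDKN1B*, at 2182 ± 143 normalized counts per kb, then overlapped *CDKN1A* at the top. *CDKN2C* stood at 419.7 ± 18.9, *CDKN2D* and *CDKN2A* overlapped at 169.5 ± 12.6 and 160.9 ± 7.3, and *CDKN2B* at 31.8 ± 6.5 lay above *CDKN1C* at 2.2 ± 1.9. In both knockout groups the order kept *CDKN1A* first and *CDKN1C* and *CDKN2B* last, with *CDKN1B* ahead of *CDKN2C* in DMSO and behind it in abemaciclib, and no neighbours overlapped.

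Summed per kb, the 7 genes reached 18528 ± 1052 (SD, n = 3) in sgControl cells in DMSO, 5182 ± 252 in abemaciclib, 22005 ± 479 in knockout cells in DMSO and 19892 ± 201 in abemaciclib. *CDKN1A* made up 51.8%, 42.8%, 63.7% and 55.5% of the sum in that order of groups. The INK4 genes together made up 30.3% ± 0.63 in sgControl libraries in DMSO and 15.1% ± 0.84 in abemaciclib, against 22.6% ± 0.059 and 29% ± 0.39 in knockout cells. These sums and shares depend on the MANE Select lengths and were not computed with other lengths, and the SDs do not cover that choice. With the union of all annotated exons as the length in place of 1 transcript, *CDKN1A* still led in each group, and in sgControl cells in abemaciclib it stood apart from *CDKN1B* (1565.6 ± 76.6 and 568.5 ± 37.2 normalized counts per kb), but *CDKN2D* ranked above *CDKN2A* in all 4 groups, above *CDKN2C* in sgControl cells in abemaciclib, and *CDKN2C* ranked above *CDKN1B* in knockout cells in DMSO. The labels name a kit for whole transcripts and the study's general methods a kit for 3′ ends, with which a count would not scale with length.

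**Figure D4:**
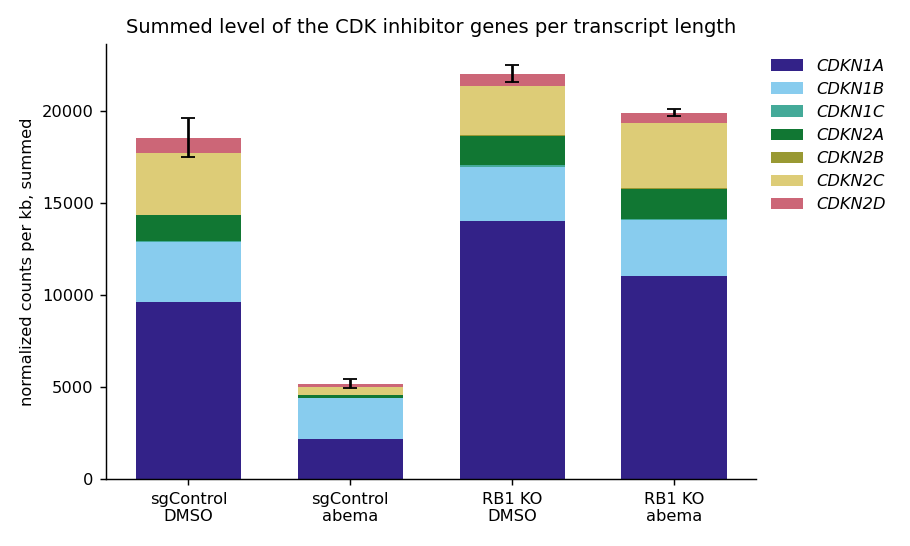
Mean normalized counts per kb of MANE Select transcript, stacked over the 7 genes (linear axis from 0), for the 4 groups, with the SD of the sum over 3 libraries in black. The sgControl cells in abemaciclib reach 5182, and the other 3 groups 18528 to 22005.

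At 9p21 the genes around *CDKN2A* had unlike responses. *CDKN2B-AS1*, a long non-coding RNA that runs antisense across *CDKN2B* and the start of *CDKN2A*, fell in sgControl cells, from 142 to 12 summed raw counts, or 9.95-fold (95% counting interval 5.52 to 19.7). Its mean normalized counts were 37.2 ± 7.2 (SD, n = 3) without and 3.9 ± 1.4 with the drug in sgControl cells, and 53.9 ± 12.7 without and 88 ± 7 with it in knockout cells. Whether the counting used strand is not given in the sources used here, and without strand, reads of this RNA and of *CDKN2A* or *CDKN2B* cannot be told apart.

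Of the 4 tested genes beside *CDKN2A* and *CDKN2B*, those called in sgControl cells were 1 riser and 2 genes that fell, where 47.9% of all genes tested were called, 24.1% higher and 23.9% lower. Besides *CDKN2B-AS1*, *MTAP*, an enzyme of methionine salvage, fell (log2 fold change -0.61 ± 0.06, adjusted p = 2.65e-20). The gene that rose, *DMRTA1* (log2 fold change 3.43 ± 0.31, adjusted p = 5.06e-28), went from a mean of 17.7 to 186.1 normalized counts, while it stood at 4.1 and 2.1 in knockout cells, and it is named here after its values were seen. Next to *CDKN1C* in the imprinted region of 11p15, 2 of 7 tested genes rose and 1 fell (3 and 2 with edgeR), a share near the 47.9% called over all genes. In that list *SLC22A18*, a membrane transporter, rose (log2 fold change 1.07 ± 0.11, adjusted p = 3.36e-23) and *PHLDA2* had a log2 fold change of -0.29 ± 0.09 (adjusted p = 0.00205).

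Of 10 tested cyclins and CDKs, the binding partners of the inhibitors, 7 fell in sgControl cells in abemaciclib, against 23.9% of all genes tested. The falls were led by *CCNE2* (log2 fold change -6.13 ± 0.20, adjusted p = 9.41e-196) and *CCNA2* (-5.08 ± 0.07), whose products are among the cyclins that work with CDK2. The only riser of the list was *CCND1* (1.18 ± 0.05, adjusted p = 3.65e-105), the gene for cyclin D1, named after its values were seen, from a mean of 66606 to 151053 normalized counts. *CDK4* did not pass (-0.12 ± 0.08, adjusted p = 0.188) and *CDK6* fell (-1.25 ± 0.22, adjusted p = 6.26e-08). In knockout cells 3 of the 10 rose and 1 fell, where 30.1% of all genes tested were called. In the interaction 8 were higher, against 21% of all genes tested, and *CCND1* was lower (-1.24 ± 0.08, adjusted p = 1.13e-57).

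Genes for the ubiquitin ligases that degrade CIP/KIP proteins moved both ways. Of 9 tested subunits, 5 fell and 3 rose in sgControl cells, against 23.9% and 24.1% of all genes tested. *DTL*, the receptor that marks p21 for destruction in S phase, fell by 2.60 on the log2 scale (± 0.06), and *SKP2*, the receptor for p27, by 0.89 (± 0.09, adjusted p = 5.20e-22). In knockout cells 1 rose and 3 fell, none by more than 0.29, where 30.1% of all genes were called.

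Of 18 tested transcription regulators known to act on these genes, 6 were called upwards and 9 downwards in sgControl cells, where 24.1% and 23.9% of all genes tested were. In knockout cells 4 were called upwards and 3 downwards, against 30.1% of all genes in either direction. *EZH2*, the Polycomb enzyme known to repress *CDKN2A*, fell in sgControl cells (log2 fold change -2.99 ± 0.07), and *TP73* fell by 1.94 (± 0.09, adjusted p = 6.76e-103). In the interaction 10 regulators were higher and 5 lower, where 41.2% of all genes tested were called.

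The 5 proliferation markers, *CCNA2* again among them, moved with these groups. All 5 fell in sgControl cells, against 23.9% of all genes tested, with a median log2 fold change of -4.03. In the interaction all 5 were higher, against 21% of all genes tested. *MKI67*, the gene for the Ki-67 antigen, had mean normalized counts of 28035 without and 369.6 with the drug in sgControl cells, and of 35750.1 without and 29490.3 with it in knockout cells. In knockout cells 3 of the 5 fell in abemaciclib, with a median log2 fold change of -0.28, where 30.1% of all genes tested were called in either direction. Mitochondrial genes took 2.823% to 4.131% of the counts in the 6 DMSO libraries and 5.443% to 8.531% in the 6 abemaciclib libraries. Of the 7 luminal markers, 4 rose and 3 fell in sgControl cells, where 47.9% of all genes tested were called. The part of the proliferation markers, the luminal markers and the mitochondrial share in the changes of the inhibitor genes was not tested.

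The genes most like each inhibitor were ranked by Pearson's r of log2 normalized counts over the 12 libraries, among 11885 genes with a mean of at least 100 normalized counts. The libraries form 4 groups, so r mainly follows the group means, and it is a description with no test. *CDKN2A* was closest to *RRM1* (r = 0.999), a subunit of ribonucleotide reductase, and to *CCNE2* and *MCUB* (both 0.998). *CDKN2C* was closest to *ASF1B* (0.998), a histone chaperone, then to *DLGAP5* and *TMEM38B* (both 0.997), and *CDKN2D* to *PBK* and *UBALD2* (both 0.998) and *CDCA8* (0.997), the last a subunit of the chromosomal passenger complex.

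Among the CIP/KIP genes, *CDKN1A* was closest to *WSCD1* (r = 0.997), *MCM6*, a subunit of the replicative helicase, and *EFEMP1* (both 0.996). *CDKN1B* was closest to *RFC4* (0.987), a clamp loader subunit, *SINHCAF* (0.986) and *THOC1* (0.985). *CDKN2B* had no gene as close, with *CAMK2G* at 0.889 and *URGCP* and *AP001062.1* at 0.881. The group means of *CDKN2B* were only 87.1 to 122.6 normalized counts, near the minimum of 100, and the part of counting error in its r was not tested. *CDKN1C* was below the level set for this ranking.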

How the data were processed

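RNA-seq libraries of 12 ZR-75-1 samples in 4 groups were compared, with groups and replicate numbers taken from the sample titles. The deposited values are raw counts per gene, not normalized and not pooled. Per the study's methods and the submitters' processing notes, the authors trimmed reads with BBDuk, aligned them to hg38 with STAR 2.7.5b and counted them with featureCounts 2.0.1 on GENCODE 35. The strand setting is not given in the sources used here. Of 60656 rows, 44 without a gene name (0% of counts) were dropped.

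From these counts, DESeq2 1.42.0 (R 4.3.3) was run once on the whole table, with group as the term, all 12 libraries and median-of-ratios size factors. Two-sided Wald tests of 5 contrasts were adjusted by Benjamini–Hochberg over the genes left by independent filtering, and an adjusted p under 0.05 was called. All adjusted p-values are from this model unless edgeR is named. Counting intervals cover counting error only. The fits were tested on simulated data.

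Alternatives were edgeR 4.0.16 (quasi-likelihood test, TMM factors), DESeq2 with TMM or total-count factors, a filter of at least 10 counts in at least 3 libraries, no independent filtering, a replicate block, only the groups compared, and leaving out each library. Same-numbered sgControl and knockout libraries in abemaciclib deviated together (correlations of 0.15, 0.26 and 0.11). In no other comparison was every pair above 0.1. The highest single pair was between sgControl in DMSO and knockout in abemaciclib (0.37, 0.26 and -0.06 for replicates 1, 2 and 3). The labels do not say what a number shares. The series calls the replicates biological, and the study describes those of its cell line RNA-seq as independent cultures.

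The members and lists were chosen with earlier results of these data known. Named genes were the 7 members, *RB1*, from each list at most 2 genes per comparison (largest absolute log2 fold change, adjusted p under 0.05, mean of at least 100 normalized counts) and the 3 genes most like each member (log2 of normalized count + 1). Further genes are given as named after their values were seen, or as the level of a list member. A gene of the lists and the list built around it are not reported here. Coordinates are 1-based, from GENCODE 44 on GRCh38. Promoter sequences are from RefSeq (GRCh38.p14).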

Additional observations from a re-analysis of the deposited data

Results flagged for a closer look

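The response to abemaciclib differed between sgControl and *RB1*-knockout cells for all 7 genes by the test of the interaction (DESeq2, knockout minus sgControl, log2 scale). The difference was 1.77 for *CDKN1A*, 0.63 for *CDKN1B*, 3.81 for *CDKN1C*, 3.18 for *CDKN2A*, 3.40 for *CDKN2C* and 2.08 for *CDKN2D*. For *CDKN2B* it was -0.79, the only negative value among the 7, and its call was lost without sgControl abemaciclib replicate 3. Against this, 8665 of 21008 genes tested passed in either direction. Genotype and clone cannot be told apart in these differences.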

How the results depend on the processing

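The 7 genes gave 35 results over 5 contrasts and 658 values under alternatives. Of these, 629 kept their direction and their side of the threshold, 24 no longer passed, 5 newly passed and 0 changed sign. The call changed in 6 results, those given with their values in the report, and the cause was not tested. The replicate block ended 1 call among the 7 genes, that of *CDKN2D* in knockout cells (adjusted p = 0.0834). Between the genotypes in abemaciclib, where same-numbered libraries deviated together, the block changed no call of a member (7 called with the block). In all 5 contrasts the number of all genes called stayed within 1.5 times the main count. Total-count factors moved the median log2 fold change of all genes to -0.12 for abemaciclib in sgControl cells, 0.16 for the interaction and 0.14 for the genotypes in abemaciclib. They also moved the split of higher and lower calls from 5657 and 5615 to 4529 and 6774 in sgControl cells and from 4415 and 4250 to 5466 and 3099 in the interaction. Without 1 library, the number of members called ran from 6 to 7 in sgControl cells, from 2 to 3 in knockout cells, from 6 to 7 for the interaction, from 4 to 6 between genotypes in DMSO and from 6 to 7 in abemaciclib. For low-count *CDKN1C* and *CDKN2B*, depth limits the precision of the fold changes.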
